A study of Mus musculus with 16 samples.

Results

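The fibroblasts are the 267 of 18203 cells (1.47%) whose deposited cluster name starts with 14, the cluster the authors named Fibroblasts. The study sequenced single cells of mouse spinal cord around the core of a dorsal column lesion, to follow how the Wnt receptor Ryk in astrocytes bears on the scar. Control mice (Ryk+/+,GFAPcreERT2, here WT) were set against mice whose Ryk gene can be deleted (Rykfl/fl,GFAPcreERT2, here cKO), all 8 to 10 weeks old, with 2 mice in each condition and 16 in all. The treatment labels are Sham, 1 day after SCI, 7 days after SCI and 14 days after SCI, where SCI is spinal cord injury, and the sample titles call the Sham mice not injured, so they are called uninjured here.

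Cre in these mice is driven by the GFAP promoter, which is active in astrocytes, so fibroblasts are not the cells in which Ryk was to be deleted. A genotype comparison within them sets side by side fibroblasts from mice whose astrocytes differ. CreERT2 acts once tamoxifen is given, which the study's methods describe as daily doses that began before the operation. Per the labels, the tissue was digested with pronase while actinomycin D blocked transcription, and dead cells were removed, so every share given is a share of the cells that came through these steps. Fibroblasts were seen in 15 of 16 mice, and 9 mice (4 WT, 5 cKO) with at least 10 of them, holding 240 of the 267 cells, entered the tests of expression.

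Several libraries stand apart from the others or from their labels. WT 1 d mouse 2 gave 1 cell and no fibroblast, and it was left out. In 6 mice, all of them replicate 2, the names of the deposited cells carry another condition than the sample title. The uninjured WT mouse is named cKO uninjured there, the uninjured cKO mouse WT 7 d, and the WT 1 d mouse WT 14 d. The WT 7 d mouse is named WT 1 d, the WT 14 d mouse cKO 14 d, and the cKO 14 d mouse cKO 7 d. Conditions follow the sample titles here, and each comparison is also given with the cell names' conditions and without these mice. Mouse 1 of WT 1 d, cKO 1 d, WT 7 d and cKO 7 d was shallow, with a median of 414, 421, 414 and 548 UMIs (unique molecular identifiers, counted molecules) per cell. The other mice with at least 50 cells lay between 1040.5 and 3637. cKO 7 d mouse 2 holds 72 fibroblasts and 52.1% of all fibroblast UMIs, so pooled levels are mostly those of that mouse, and levels per mouse are given beside them. Of the cells, 432 carry a barcode that occurs in more than 1 library. Of these cells 5 are fibroblasts, and 4 of the 5 share the barcode with another fibroblast.

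The fibroblasts held 1910735 UMIs of 22070 genes, with a median of 2498 UMIs per cell (243 to 113191) against 1165 in the other cells, and a median mitochondrial share of 3.18% against 3.07%. The fibroblasts of cKO 1 d mouse 2 had a median mitochondrial share of 8.96%, those of the other 8 tested mice 2.08 to 3.94%. Summed per mouse, fibroblast UMIs came to 23586 in the uninjured WT mouse used for expression, 5446 (WT), 7330 and 67216 (cKO) at 1 d, 21623 (WT) and 994874 (cKO) at 7 d, and 152154 (WT), 287782 and 221832 (cKO) at 14 d. Levels are given in CPM, the UMIs of a gene per 1000000 UMIs of a mouse's fibroblasts, and always in this order of mice. Of the tested mice, depth limits both mice 1 at 1 d most: a level of 0 allows up to 551 CPM (3 UMIs) in WT 1 d mouse 1 and 409 in cKO 1 d mouse 1, but 44.6 in cKO 1 d mouse 2 and 3.02 in cKO 7 d mouse 2. Of the mice with fewer fibroblasts, uninjured cKO mouse 1 (999) and cKO 7 d mouse 1 (746) have the highest such limits. The other 7 mice, with fewer than 10 fibroblasts or none, enter no test of expression. Few cells carry much of the RNA: 9 fibroblasts above 30000 UMIs, 5 of them in cKO 7 d mouse 2, hold 21.9% of the UMIs.

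Fibroblasts of the spinal cord line the leptomeninges and the larger vessels, where they lay down collagen and other matrix. After a lesion that opens the meninges, fibroblasts gather at its core and build the fibrotic part of the scar, which astrocytes border.

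Ryk itself, on chromosome 9, 102834917 to 102908305 of GRCm38, was read in the fibroblasts at low depth, with 223 UMIs in the whole cluster. Its level was 297 and 42.4 CPM in the uninjured WT mice and 0 and 122 in the uninjured cKO mice. At 1 d it was 0 CPM in the WT mouse and 0 and 104 in the cKO mice, and at 7 d it was 92.5 and 181 in WT and 497 and 126 in cKO mice. The 14 d mice stood at 98.6 and 94.9 CPM (WT) and 111 and 108 (cKO). WT and cKO values overlap before injury, at 1 d and at 7 d, where several mice rest on 0 to 3 UMIs. At 14 d both cKO mice lie above both WT mice by less than the spread seen at 7 d. These levels check nothing about the deletion in astrocytes, and Ryk did not pass the filter on low counts, so its difference between genotypes in fibroblasts was not tested. Pooled over the cluster Ryk came to 117 against 65.4 CPM in all other cells, and the fibroblasts ranked 4 of 17 clusters.

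The fibroblast markers read in the cluster are Dcn (decorin, which binds collagen fibres), Col1a1 and Col1a2 (the chains of collagen I), Lum (lumican, which spaces the fibres) and Col3a1 (collagen III). Their positions on GRCm38 are Dcn (chromosome 10, 97479609 to 97518143), Col1a1 (chromosome 11, 94936224 to 94953042), Col1a2 (chromosome 6, 4504814 to 4541544), Lum (chromosome 10, 97565128 to 97572703) and Col3a1 (chromosome 1, 45311538 to 45349706). A UMI of Dcn was found in 74.5% of fibroblasts and 2.47% of the other cells, whose median depths were 2498 and 1165 UMIs. The same shares were 65.9% and 2.60% for Col1a1, 76.03% and 6.89% for Col1a2, 19.9% and 0.401% for Lum, and 68.5% and 1.77% for Col3a1. The cluster was made from expression and chosen by these markers, so the shares describe it and do not test its label. At least 3 markers were seen in 179 fibroblasts and all 5 in 44, while 24 cells, with a median of 1084 UMIs, showed none. The 6 marker genes of the fibroblast list, these and Pdgfra (a Pdgf receptor), summed to 20777 CPM in the cluster and 111 in the other cells.

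Dcn stood at 4409 CPM in the uninjured WT mouse, 17260.4 (WT), 3956 and 580.2 (cKO) at 1 d, 10267 (WT) and 8104 (cKO) at 7 d, and 795 (WT), 4573 and 4729 (cKO) at 14 d. For Col1a1 the levels were 4028 CPM in the uninjured WT mouse, 4223 (WT), 682 and 268 (cKO) at 1 d, 5503 (WT) and 6111 (cKO) at 7 d, and 506 (WT), 1654 and 748 (cKO) at 14 d. Col1a2 gave 3392 CPM in the uninjured WT mouse, 2387 (WT), 955 and 402 (cKO) at 1 d, 5735 (WT) and 7627 (cKO) at 7 d, and 874 (WT), 1959.8 and 1379 (cKO) at 14 d. All 3 genes were lowest in cKO 1 d mouse 2 and next lowest in WT 14 d mouse 1. Lum was read at 84.8 CPM in the uninjured WT mouse, 918 (WT), 0 and 44.6 (cKO) at 1 d, 509 (WT) and 482 (cKO) at 7 d, and 72.3 (WT), 268 and 94.7 (cKO) at 14 d. Levels of Col3a1 came to 4452 CPM in the uninjured WT mouse, 2019.8 (WT), 682 and 387 (cKO) at 1 d, 5919.6 (WT) and 9399 (cKO) at 7 d, and 782 (WT), 2081 and 933 (cKO) at 14 d. WT and cKO mice overlap for each of the 5 markers, and of the 9 mice those at 7 d were highest for both collagen I chains and Col3a1.

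Which genes set the fibroblasts apart from every other cell of the cord was read from the ratio of pooled CPM, among genes seen in at least 10% of the cluster's cells. This ranking describes a cluster that was itself made from expression, so no test was run. Matrix and growth-factor genes are among the 20 that lead: Col3a1 (5675 against 9.70 CPM), Dcn (5943 against 14.6), Col1a1 (3772 against 10.9), Lum (323 against 1.42) and Col6a1 (744 against 3.05, a chain of the beaded collagen VI). Igfbp5 (8745 against 29.8) and Igfbp6 (3151 against 5.79), which bind insulin-like growth factors, Smoc2 (1055 against 3.15), a secreted calcium-binding matrix protein, and Sfrp4 (470.0 against 1.38), a soluble Wnt binder, belong to them too. Genes of lining layers lead as well: Prg4 (1409 against 2.94), the lubricant lubricin, Msln (79.6 against 0.233), mesothelin of the cell surface, and Krt19 (26.7 against 0.117), a keratin. With them stand Mpzl2 (176 against 0.505), an adhesion protein, Tmem30b (18.3 against 0.0389), a lipid flippase subunit, Krtdap (189 against 0.0972) and Lypd2 (232 against 0.486), small secreted or surface proteins of epithelia. The others are the transporters Slc47a1 (1189 against 1.96) and Slc26a7 (366 against 1.30), the retinoic acid carrier Crabp2 (301 against 0.583) and the imprinted RNA H19 (156 against 0.505).

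Fibrillar collagens carry the tensile load of scar and meninges. The 7 on the list summed to 15989 CPM in the pooled fibroblasts and 158 in the other cells, all 7 were higher in the fibroblasts, and 6 had their highest pooled level of 17 clusters there. Per mouse their sum was 13228 CPM in the uninjured WT mouse, 9732 (WT), 2456 and 1220.0 (cKO) at 1 d, 19054 (WT) and 26003 (cKO) at 7 d, and 2484 (WT), 6352 and 3823 (cKO) at 14 d. Of the 9 mice the sum was therefore highest in those at 7 d and lowest in the cKO mice at 1 d and the WT mouse at 14 d. Of the mice with few fibroblasts, WT 7 d mouse 2 (3 cells) stood at 31661 CPM but cKO 7 d mouse 1 (7 cells) at 5467, below the uninjured WT mouse, and uninjured cKO mouse 2 (6 cells) at 12718. Col5a2, a chain of the collagen V that seeds fibres, ranged from 104 to 1606 CPM (median 298) over the 9 mice, highest in cKO 7 d mouse 2; the other leading members are Col3a1, Col1a2 and Col1a1, given above.

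Collagens that join or run beside these fibres summed to 4642 CPM against 87.3 in the other cells, with 8 of 8 higher in the fibroblasts and 7 highest there. Col12a1, which lies along collagen I fibres, ranged from 184 to 1696 CPM (median 682). Col8a1, a network former, ranged from 184 to 1587 CPM (median 509), Col6a2 from 136 to 1097 CPM (median 555) and Col6a1 from 0 to 986 CPM (median 462). Col12a1 was highest in uninjured WT mouse 2 and Col8a1 in cKO 14 d mouse 2, so these members do not share the peak at 7 d of the fibrillar sum. Basement membrane genes, which make the sheet under vessels and the glia limitans, summed to 3343 CPM against 870.2, with 13 of 14 higher in the fibroblasts but 5 highest there. Of them Lama2 (laminin) ranged from 89.3 to 1364 CPM (median 429), and Nid1 (nidogen, a linker) from 105 to 1011 CPM (median 409). Lamb2 (laminin) ranged from 0 to 1189.6 CPM (median 397) and Lama1 (laminin) from 0 to 1334 CPM (median 177).

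Small leucine-rich proteoglycans, which set the width of collagen fibres, summed to 9357 CPM against 108 in the other cells; all 9 were higher in the fibroblasts and 8 were highest there. Beside Dcn, Bgn (biglycan) ranged from 253 to 1696 CPM (median 712), Ogn (osteoglycin) from 0 to 1066 CPM (median 243) and Aspn (asporin) from 0 to 1266 CPM (median 216). Glycoproteins and elastic fibre genes summed to 16192 CPM against 3049.7, with 17 of 18 higher and 13 highest in the fibroblasts. Fn1 (fibronectin, the early scar's scaffold; chromosome 1, 71585520 to 71653200 of GRCm38) stood at 1781 CPM in the uninjured WT mouse, 184 (WT), 409 and 2499 (cKO) at 1 d, 1849.9 (WT) and 3064 (cKO) at 7 d, and 4804 (WT), 1946 and 798 (cKO) at 14 d. Mgp, a matrix protein that hinders mineral, ranged from 367 to 10699.7 CPM (median 4743), Sparc, which binds collagen in the cell, from 546 to 5324 CPM (median 1886), and Mfap5, a microfibril part, from 0 to 2968 CPM (median 726). Fn1 and Mgp were highest in WT 14 d mouse 1, where the fibrillar collagens were low. Fn1 was next highest in cKO 7 d mouse 2 (3064 CPM), where the fibrillar sum was highest (26003 CPM). Whether Fn1 and the collagens move together over these mice was not tested.

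Collagen processing and crosslinking genes summed to 2686 CPM against 369 in the other cells, with 13 of 13 higher and 9 highest in the fibroblasts. The collagen chaperone Serpinh1 ranged from 322 to 1653 CPM (median 417) and the procollagen processing helper Pcolce from 264 to 933 CPM (median 409). The procollagen protease Adamts2 ranged from 0 to 405 CPM (median 254) and the lysine hydroxylase Plod2 from 72.3 to 462 CPM (median 184). Matrix proteases and their inhibitors summed to 3326 CPM against 625, with 12 of 13 higher and 8 highest in the fibroblasts. The protease inhibitors Timp2, Timp3 and Timp1 ranged from 409 to 2035 CPM (median 888), from 149 to 1836 CPM (median 639) and from 101 to 918 CPM (median 297). The aggrecan protease Adamts5 ranged from 0 to 509 CPM (median 254). Timp1 was at 918, 819 and 863 CPM in the 1 d mice, above 277 and 124 in the 7 d mice. The list of activated and contractile fibroblasts summed to 4285 CPM against 669, with 10 of 12 members higher and 6 highest in the fibroblasts, mostly through Fn1 and Col12a1. Tnc (tenascin, a scar glycoprotein) ranged from 0 to 1091 CPM (median 91.5) and Tpm1 (tropomyosin) from 127 to 309 CPM (median 216). Acta2 (smooth muscle actin) was at 0 in 5 of 9 mice and highest, at 546 CPM, in cKO 1 d mouse 1.

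Leptomeningeal fibroblasts carry organic ion transporters, a prostaglandin synthase and retinoic acid genes. This list summed to 7199 CPM in the cluster and 1189 in the other cells, with 15 of 19 members higher in the fibroblasts and 12 highest there. Ptgds, the prostaglandin D synthase of the meninges, stood at 169.6 CPM in the uninjured WT mouse, 0 (WT), 2729 and 12839 (cKO) at 1 d, 92.5 (WT) and 3418 (cKO) at 7 d, and 12205 (WT), 573 and 974 (cKO) at 14 d. Slc47a1, a cation exporter, ranged from 0 to 1696 CPM (median 769), and Foxd1, a transcription factor, from 136 to 1102 CPM (median 237). The perivascular and pan-fibroblast list summed to 6196 CPM against 1337, with 12 of 14 higher and 8 highest in the fibroblasts. Gsn (gelsolin, which severs actin) ranged from 546 to 13772 CPM (median 3156) and Pi16 (a peptidase inhibitor of adventitial fibroblasts) from 0 to 1950.3 CPM (median 733). The surface protein Cd34 ranged from 19.7 to 1060.0 CPM (median 264) and Ly6a from 72.3 to 925 CPM (median 158).

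Retinoic acid genes summed to 1886 CPM in the fibroblasts and 289 in the other cells, with 10 of 12 higher and 8 highest there. Stra6, the retinol uptake receptor, ranged from 0 to 1041 CPM (median 165). Crabp2, which carries retinoic acid to the nucleus, ranged from 0 to 655 CPM (median 225), and Rarb, a receptor that retinoic acid induces, from 0 to 409 CPM (median 169.6).

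Since the study deleted a Wnt receptor, the Wnt genes of the fibroblasts were read as senders and receivers. Wnt ligands summed to 444 CPM in the cluster and 46.3 in the other cells, with 9 of 10 higher in the fibroblasts and 8 highest there of all clusters. Wnt9a stood at 42.4 CPM in the uninjured WT mouse, 0 (WT), 0 and 74.4 (cKO) at 1 d, 139 (WT) and 207 (cKO) at 7 d, and 78.9 (WT), 72.97 and 131 (cKO) at 14 d. The ligands Wnt6, Wnt4 and Wnt16 ranged from 0 to 185 CPM (median 59.1), from 0 to 273 CPM (median 22.5) and from 0 to 136 CPM (median 28.1), with 0 CPM in 2, 2 and 3 of 9 mice. The ligand Wnt5a, which Ryk can bind, came to 57.05 against 16.3 CPM in the other cells, pooled, and was at 0 in 2 of 9 mice. A UMI of Wnt9a was found in 28.5% of fibroblasts and 0.513% of other cells, at median depths of 2498 and 1165 UMIs. Wnt receptors and regulators summed to 1894 CPM against 438, with 16 of 18 higher and 9 highest in the fibroblasts; Sfrp2, a soluble Wnt binder, had no UMI. Sfrp4 ranged from 0 to 1102 CPM (median 233), the receptor Ror1 from 29.8 to 918 CPM (median 268), the co-receptor Lrp6 from 59.5 to 601 CPM (median 234) and the receptor Fzd2 from 0 to 277 CPM (median 134). Genes that canonical Wnt signalling induces summed to 238 CPM in the fibroblasts and 657 in the other cells, with 1 of 11 higher and 0 highest in the fibroblasts. Ccnd1 (cyclin D1) ranged from 0 to 367 CPM (median 56.3), and the Wnt brakes Znrf3, Axin2 and Rnf43 from 0 to 273 CPM (median 45.1), from 0 to 273 CPM (median 32.2) and from 0 to 136 CPM (median 11.1). Ligands and receptors were thus higher in the fibroblasts than in the other cells, while the target genes were not.

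Fgf ligands and receptors summed to 872 CPM in the fibroblasts, under the 1158 of the other cells, with 4 of 12 higher and 2 highest in the fibroblasts. Fgfr1 stood at 169.6 CPM in the uninjured WT mouse, 551 (WT), 136 and 357 (cKO) at 1 d, 416 (WT) and 427 (cKO) at 7 d, and 526 (WT), 521 and 369.6 (cKO) at 14 d. Pooled it came to 434 against 40.9 CPM in the other cells, its highest level of all clusters. Fgfr2 ranged from 42.4 to 277 CPM (median 167), and the intracellular factors Fgf13 and Fgf14 from 0 to 273 CPM (median 36.1) and from 0 to 223 CPM (median 59.2). All 3 were lower in the pooled fibroblasts than in the other cells. Among secreted ligands, Fgf2 came to 20.9 against 7.85 CPM, Fgf7 to 11.5 against 3.50 CPM, Fgf10 to 3.14 against 4.12 CPM and Fgf18 to 13.1 against 2.39 CPM in the other cells.

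Genes of Tgfb and Bmp signalling, which drive matrix synthesis, summed to 3585 CPM in the fibroblasts and 1783 in the other cells, with 20 of 24 higher and 9 highest in the fibroblasts. Id3 and Id1, which Bmp signals induce, ranged from 84.8 to 605 CPM (median 455) and from 0 to 546 CPM (median 215). The co-receptor Tgfbr3 ranged from 42.4 to 551 CPM (median 289) and Ltbp4, which holds latent Tgfb in the matrix, from 0 to 551 CPM (median 295). Pdgf and Igf genes summed to 14204 CPM against 2154, with 11 of 15 higher and 5 highest in the fibroblasts. Most of that sum is Igfbp5, which stood at 5469 CPM in the uninjured WT mouse, 918 (WT), 0 and 1875 (cKO) at 1 d, 8787 (WT) and 12441 (cKO) at 7 d, and 2984 (WT), 6925 and 4116 (cKO) at 14 d. Igfbp5 was highest in the 7 d mice and low at 1 d. The related proteins Igfbp6, Igfbp7 and Igfbp3 ranged from 1091 to 5974 CPM (median 3508), from 365 to 1469 CPM (median 647) and from 0 to 1666 CPM (median 111).

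Cytokines and chemokines summed to 522 CPM in the fibroblasts, under the 903 of the other cells, with 7 of 16 higher and 3 highest in the fibroblasts. The alarmin Il33 ranged from 0 to 546 CPM (median 78.9) and the chemokine Cxcl12 from 0 to 273 CPM (median 92.5). The microglial growth factor Il34 ranged from 0 to 367 CPM (median 54.3) and the monocyte attractant Ccl2 from 0 to 546 CPM (median 14.9). Complement and acute phase genes summed to 7526 CPM against 6042, with 10 of 13 higher and 6 highest in the fibroblasts. Apod (a lipid carrier) ranged from 254 to 17628 CPM (median 2304) and Clu (clusterin) from 212 to 4903 CPM (median 735). Serping1 (the C1 inhibitor) ranged from 387 to 1399 CPM (median 918).

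Pericytes and smooth muscle cells also sit on vessels and share genes with fibroblasts. The fibroblasts were set beside the deposited cluster of these cells (836 cells) within the 9 mice, as CPM averaged over mice (± SD, n = 9) and without a test. Fibroblasts were higher in 9 of 9 mice for Col1a1 (2636 ± 2325 against 12.03 ± 19.3 CPM), Col1a2 (2746 ± 2449 against 107 ± 52.9), and Col3a1 (2962 ± 3057 against 56.3 ± 43.2). So they were for Dcn (6075 ± 5199 against 87.1 ± 74.6) and Fbn1 (879.8 ± 722 against 2.98 ± 5.19), the fibrillin of microfibrils. They were higher in 8 of 9 mice for Pdgfra (271 ± 220.2 against 2.67 ± 4.43) and Lum (275 ± 306 against 0.961 ± 1.58), and in 6 of 9 for Sparc (2743 ± 1712 against 1475 ± 391). Fibroblasts were lower in all 9 mice for Rgs5 (135 ± 309.9 against 4445 ± 1666), a pericyte signal regulator, Vtn (309 ± 322 against 4127 ± 764), vitronectin, and Notch3 (37.3 ± 88.9 against 1031 ± 254), a vessel receptor. The same held for Acta2 (69.7 ± 179 against 1755 ± 1163), Tagln (86.8 ± 115 against 1417 ± 1031), an actin binder of smooth muscle, and Col4a1 (219 ± 95.1 against 767 ± 176), a basement membrane collagen. Ryk averaged 75.8 ± 48.7 against 139 ± 61.8 CPM, higher in the fibroblasts in 2 of 9 mice. The markers of pericytes and smooth muscle summed to 363 CPM in the pooled fibroblasts, with Vtn the most abundant.

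RNA freed from other cells reaches every droplet, so markers of other cell types were summed in the fibroblasts of each mouse. Oligodendrocyte markers came to 1431 CPM in the pooled fibroblasts and 9676 in the other cells, with Mbp (myelin basic protein) the most abundant. Per mouse they came to 4155 CPM in the uninjured WT mouse, 551 (WT), 1501 and 3154 (cKO) at 1 d, 879 (WT) and 1402 (cKO) at 7 d, and 578 (WT), 1102 and 1654 (cKO) at 14 d. They were highest in the uninjured WT mouse and cKO 1 d mouse 2. Markers of neurons summed to 502 CPM (Meg3 most abundant; 79.9 to 1528 CPM with a median of 445 over the 9 mice) and of astrocytes to 401 (Gfap; 136 to 1461 CPM with a median of 277). Those of endothelial cells summed to 395 (Ly6c1; 167 to 863 CPM with a median of 370.0). Microglial markers summed to 281 CPM (0 to 819 CPM with a median of 283) and those of pericytes over mice to 0 to 2183 CPM with a median of 329. For macrophages and other immune cells the sum was 68.6 (Cd74; 0 to 135 CPM with a median of 39.4). Schwann cell markers came to 304 CPM (Pmp22; 136 to 1017 CPM with a median of 252) and ependymal markers to 100.5 (Rarres2; 29.8 to 551 CPM with a median of 108; Foxj1 and Ccdc153 at 0). Red blood cell markers came to 50.8 (Hbb-bs; 0 to 424 CPM with a median of 63.3) and neutrophil markers to 16.7 (S100a9; 0 to 169.6 CPM with a median of 0). All of these lists lie below the sum in the other cells except the ependymal list (87.1 CPM there) and the list of oligodendrocyte precursors (636 CPM; 138 to 829 CPM with a median of 420.5), which shares Pdgfra and Vcan with fibroblasts. Whether other cells' RNA moved any level given here was not tested.

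Clustering the 267 fibroblasts on their own gave 6 subclusters, which are numbered and described by the genes that lead them, without a test. Subcluster 1 (85 cells, 31.8%, from 12 mice) had a median of 993 UMIs, held 17 of the cells without a marker, and was led by Mbp (3195 against 792 CPM) and the mitochondrial RNA mt-Rnr2 (25564 against 6890.2 CPM). Subcluster 2 (65 cells, 24.3%, 8 mice, 11622 UMIs) had Col25a1 (1531 against 32.3 CPM), a membrane collagen, and Hhip (297 against 16.1 CPM) among its leading genes, and Hhip binds hedgehog proteins. Subcluster 3 (37 cells, 13.9%, 10 mice, 1370 UMIs) was led by unnamed transcripts such as Gm10719 (216 against 0.550 CPM) and Gm10801 (1147 against 6.05 CPM), with Dcc (271 against 4.95 CPM), an axon guidance receptor, further down. Markers of oligodendrocytes summed to 8464 CPM in it, the most of all subclusters, and those of neurons to 4135 (2087 without cKO 14 d mouse 2). In subcluster 1 oligodendrocyte markers summed to 4440 CPM, and to 2721 without cKO 7 d mouse 2. Subclusters 1 and 3 thus carry oligodendrocyte genes beside low depth. Subcluster 4 (35 cells, 13.1%, 11 mice, 3368 UMIs) had Lama1 (1658 against 12.05 CPM) and Cemip (1332 against 15.1 CPM), which breaks down hyaluronan, among its leading genes, and the highest sum of pericyte and smooth muscle markers (1922 CPM, against 0 to 667). Subcluster 5 (28 cells, 10.5%, 6 mice, 12970.5 UMIs) took 20 cells from cKO 7 d mouse 2. Its leading genes include Aspn (2650.4 against 52.9 CPM), Wnt2 (87.3 against 3.53 CPM) and Rspo2 (104 against 4.23 CPM), the last a Wnt amplifier. Subcluster 6 (17 cells, 6.37%, 5 mice, 721 UMIs) took 10 cells from WT 7 d mouse 1 and was led by Ly6c1 (1373 against 126 CPM), which is on the endothelial list, and Clec3b (4014 against 406 CPM), a secreted lectin. It has the lowest depth and the highest sums of endothelial (1373 CPM, all of it Ly6c1) and microglial markers (951 CPM), and whether subclusters 1, 3, 4 and 6 hold mixed droplets was not tested.

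The subclusters differ in matrix. Fibrillar collagens summed to 5363, 4697, 1710.1, 11007, 45118 and 19276 CPM in subclusters 1 to 6. Without cKO 7 d mouse 2 the sum was 18549 in subcluster 5 and 2129.9 in subcluster 2, so that subcluster 5 is above subcluster 6 through this mouse alone. The leptomeningeal list was lowest in subclusters 5 and 6, with 13328, 10776, 4405, 3672, 1389 and 739 CPM. Subcluster 1 came to 5931 without WT 14 d mouse 1, whose cells there held Ptgds at 44385 CPM, and was then below subcluster 2. The perivascular and pan-fibroblast list gave 2931, 2844, 1797, 8359.8, 12424 (21559 without cKO 7 d mouse 2) and 23342. Basement membrane genes summed to 10066 CPM in subcluster 4, and 2029.6, 1797, 1429, 3540.0 and 3063 in subclusters 1, 2, 3, 5 and 6. At a finer resolution (7 clusters), 46, 46, 37, 35, 27 and 17 cells of subclusters 1 to 6 stayed together. Since subcluster 5 comes from 6 mice and subcluster 6 from 5, a difference between conditions in the share of a subcluster was not tested.

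**Figure D1:**
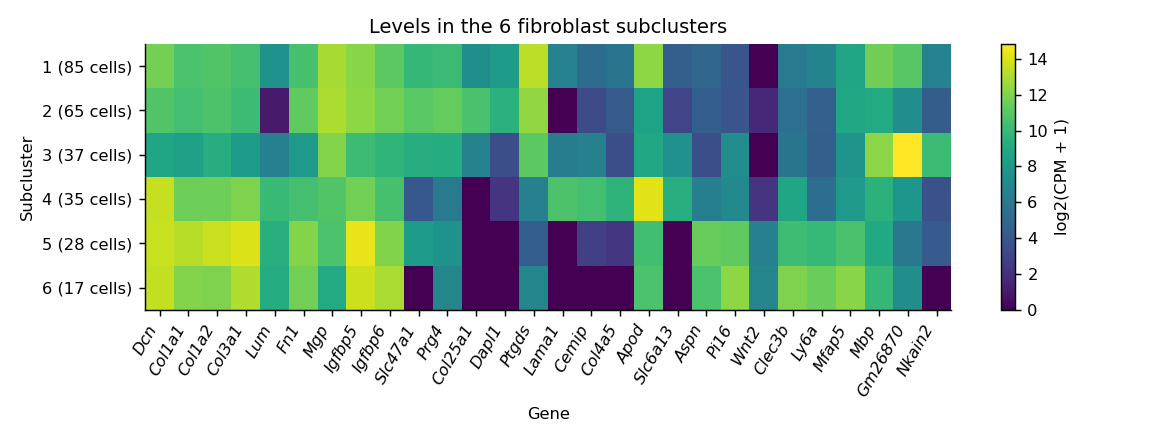
Level of marker and lead genes (columns) in the pooled cells of each of the 6 fibroblast subclusters (rows), as log2 of CPM plus 1. Col3a1 is highest in subcluster 5, most of whose cells come from cKO 7 d mouse 2.

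**Figure D2:**
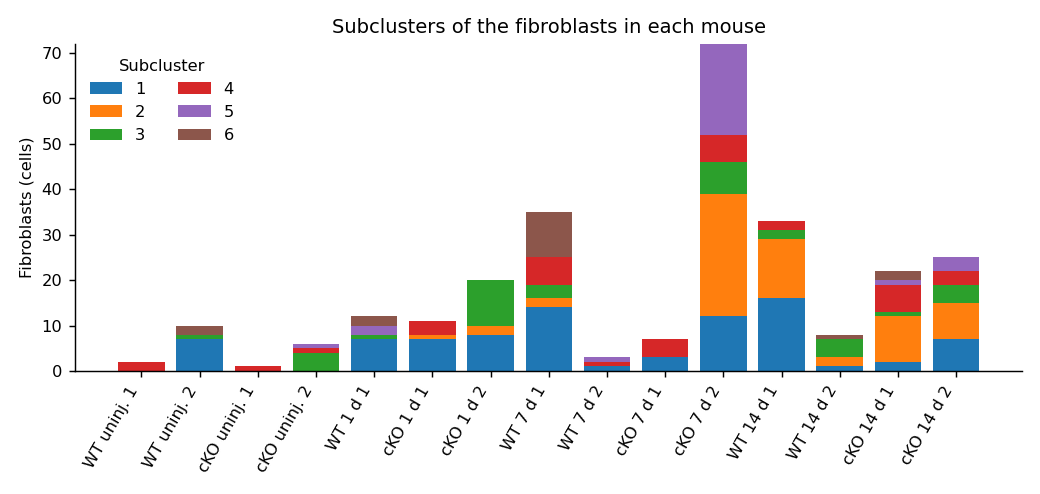
Number of fibroblasts in each mouse (bars), stacked by subcluster (colours). cKO 7 d mouse 2 holds 72 fibroblasts, 20 of them in subcluster 5.

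Whether injury brings more fibroblasts into the tissue was read from their share of each mouse's cells. The mean share was higher after injury than before, but the exact test did not pass the threshold, and injured mice range from within the span of the uninjured ones to far above it. In uninjured mice the share, with its 95% Clopper-Pearson interval, was 0.204% (2 of 980 cells, 0.0247 to 0.735) and 0.723% (10 of 1384 cells, 0.347 to 1.32) in WT mice. In uninjured cKO mice it was 0.481% (1 of 208 cells, 0.0122 to 2.65) and 0.485% (6 of 1238 cells, 0.178 to 1.05). At 1 d it was 1.17% (12 of 1025 cells, 0.606 to 2.04) in the WT mouse and 0.899% (11 of 1223 cells, 0.450 to 1.60) and 1.08% (20 of 1845 cells, 0.663 to 1.67) in the cKO mice. At 7 d the WT mice had 2.91% (35 of 1203 cells, 2.03 to 4.02) and 0.357% (3 of 840 cells, 0.0737 to 1.04). The cKO mice had 0.392% (7 of 1786 cells, 0.158 to 0.806) and 4.73% (72 of 1521 cells, 3.72 to 5.92). The mice of a genotype thus differ from each other at 7 d by more than the genotype means do. At 14 d the shares were 3.25% (33 of 1014 cells, 2.25 to 4.54) and 0.613% (8 of 1305 cells, 0.265 to 1.20) in WT mice, and 1.94% (22 of 1135 cells, 1.22 to 2.92) and 1.67% (25 of 1495 cells, 1.09 to 2.46) in cKO mice. The 3 highest shares come from 7 d and 14 d mice.

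The injured mice (lowest 0.357%, median 1.17%, highest 4.73%) averaged 1.73% ± 1.38 (SD, n = 11) and the uninjured mice 0.473% ± 0.212 (SD, n = 4). Averaged over genotypes the difference was 1.25 points, and an exact two-sided permutation test of the injury label within genotype gave p = 0.100 over 588 arrangements (smallest p 0.00170). With mice paired by replicate number the difference was 1.15 points (exact two-sided permutation p = 0.120, smallest 0.00521). With the cell names' conditions it was 1.22 (exact permutation p = 0.106, smallest 0.00463). Without the 6 mice whose cell names differ it was 1.78 (exact permutation p = 0.167, smallest 0.0417). Between genotypes after injury the mice overlap widely: WT mice averaged 1.66% ± 1.34 (SD, n = 5) and cKO mice 1.79% ± 1.55 (SD, n = 6). Averaged over time points, cKO minus WT was 0.207 points, with an exact two-sided permutation p of 0.787 over 108 arrangements (smallest 0.00926), and 0.266 points with the replicate pairing (exact p = 0.875, smallest 0.0625). The direction turns to -0.394 with the cell names' conditions (exact permutation p = 0.639) and to -0.614 without the 6 mice (exact permutation p = 0.611). It also turns without cKO 7 d mouse 2 (-0.516), WT 14 d mouse 2 (-0.233) or WT 7 d mouse 2 (-0.218). Shares also move with the other cells caught in each library, and tissue area was not measured.

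**Figure D3:**
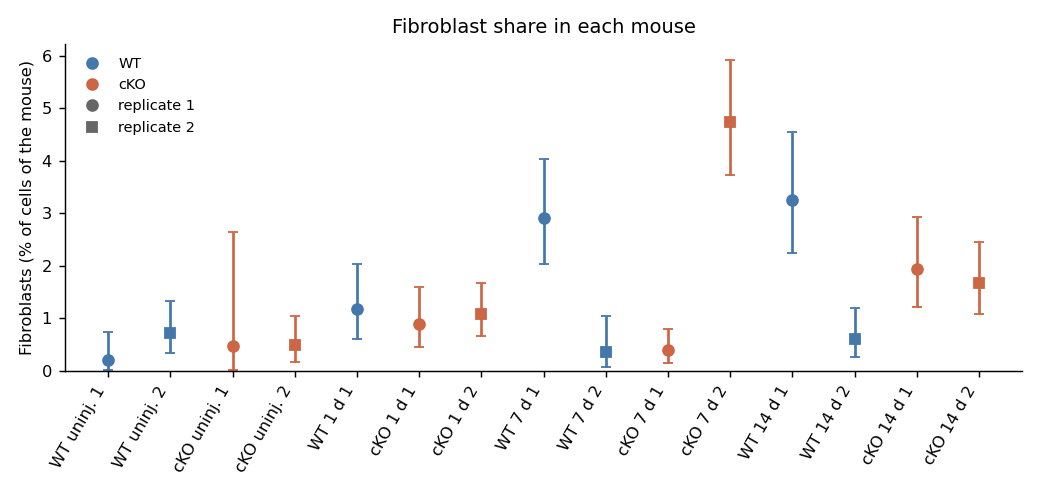
Fibroblasts as percent of all cells of each mouse by condition (points, with 95% Clopper-Pearson intervals). Uninjured mice lie between 0.204 and 0.723%, injured mice between 0.357 and 4.73%.

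Whether fibroblasts differ in mice whose astrocytes can lose Ryk was tested over 4113 genes in the 9 mice, with time point in the model. The uninjured WT mouse is the only tested mouse of its time point, so it cannot inform the genotype difference. The tested WT mice at 1 d, 7 d and 14 d are all mouse 1 (batch 1). Tested cKO mice include mouse 2 (batch 2) at each of these times. At 7 d WT mouse 1 (21623 fibroblast UMIs) stands against cKO mouse 2 (994874), so genotype, batch and depth cannot be told apart there. No gene passed with edgeR's TMM scaling or DESeq2. The markers' differences average ratios that have opposite signs at 1 d and 14 d, and their directions, like that of the fibrillar collagens, depend on single mice. The quasi-likelihood test of edgeR (Benjamini-Hochberg) called 0 genes (0%), while 143 genes (3.48%) had an unadjusted p under 0.05, and DESeq2 called 0, with 131 under 0.05 unadjusted. Over all genes the median log2 difference was 0.20, 0.14 without TMM (edgeR's scaling between libraries) and 0.06 with DESeq2. Of all genes 2509 of 4113 were above 0, and counts by role are to be read against it. Without TMM 6 genes passed (4 higher, 2 lower), and leaving out cKO 1 d mouse 2 gave 13, WT 1 d mouse 1 1 and WT 7 d mouse 1 1. The replicate pairing gave 1, the cell names' conditions 1, and leaving out the mice whose cell names differ 0.

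By role, log2 differences above 0 (cKO over WT) were found for 5 of 7 (median 0.27, 0.05 without TMM, 0.10 with DESeq2) fibrillar collagens. The fibrillar median lay below 0 without cKO 7 d mouse 2 (-0.32), WT 14 d mouse 1 (-0.31), WT 7 d mouse 1 (-0.16) or cKO 14 d mouse 1 (-0.13), so its direction rests on these mice. For most lists the other 2 scalings are given only where the sign of the median differs under them. Above 0 were 7 of 7 (median 0.90) other interstitial collagens, 11 of 12 (median 0.74) basement membrane genes and 14 of 16 (median 0.77) glycoproteins. Small leucine-rich proteoglycans gave 4 of 7 (median 0.51, -0.34 with DESeq2) above 0, processing genes 6 of 10 (median 0.07, -0.05 with DESeq2) and the perivascular list 8 of 13 (median 0.55, -0.04 with DESeq2), so all 3 change sign. Proteases and inhibitors gave 7 of 9 (median 0.65), activated and contractile genes 6 of 6 (median 0.69; 4 of 6 without TMM, 5 with DESeq2), retinoic acid genes 8 of 8 (median 1.02) and leptomeningeal genes 9 of 13 (median 0.35). Among signalling lists the counts above 0 were 2 of 3 (median 0.53) for Wnt ligands, 7 of 10 (median 0.23, -0.10 with DESeq2) for Wnt receptors and regulators and 1 of 3 (median -0.33) for Wnt targets. They were 3 of 5 (median 0.45) for Fgf genes, 13 of 18 (median 0.19; 11 of 18 without TMM, 9 with DESeq2) for Tgfb and Bmp genes, 9 of 12 (median 0.73) for Pdgf and Igf genes and 5 of 9 (median 0.34, -0.38 with DESeq2) for cytokines. Complement genes, of which 1 member was at 0 in an arm, gave 5 of 8 above 0. No gene of these lists passed with edgeR or DESeq2, and without TMM 1 Tgfb or Bmp gene did. An unadjusted p under 0.05 in edgeR was found for 3 of 13 perivascular genes, 3 of 16 glycoproteins, 2 of 10 processing genes and 2 of 12 Pdgf and Igf genes. It was found for 1 gene each of the fibrillar collagens, other interstitial collagens and basement membrane, leptomeningeal, Tgfb and Bmp, and complement lists, and for 0 of the other lists with roles. Markers of oligodendrocytes were above 0 for 3 of 3 (median 1.49), of astrocytes for 3 of 3 (median 0.67) and of neurons for 2 of 2 (median 0.78), with 1 of 3, 1 of 3 and 0 of 2 at an unadjusted p under 0.05. An unadjusted p under 0.05 was also found for 2 of 2 oligodendrocyte precursor markers, both above 0, and for 1 of 2 Schwann cell markers, both below 0.

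The markers' log2 differences between cKO and WT were -0.34 (SE 0.95) for Dcn, -0.34 (SE 0.81) for Col1a1 and 0.18 (SE 0.76) for Col1a2. They were -0.17 (SE 0.73) for Lum, 0.27 (SE 0.78) for Col3a1 and 0.14 (SE 0.99) for Fn1, and all 6 lie within 1 SE of 0. Without WT 1 d mouse 1 Dcn turned to 1.31, Col1a1 to 0.83, Lum to 0.76 and Fn1 to -0.85. Without cKO 1 d mouse 2 these 4 stood at 0.22, 0.0357, 0.19 and -0.68, and without cKO 1 d mouse 1 Lum at 0.0586. Col1a2 and Col3a1 turned to -0.46 and -0.31 without WT 14 d mouse 1, -0.33 and -0.31 without cKO 7 d mouse 2, -0.19 and -0.16 without WT 7 d mouse 1, and -0.13 and -0.17 without cKO 14 d mouse 1. Col1a2 turned to -0.00740 without cKO 14 d mouse 2, and Fn1 to -0.33 and -0.40 without WT 7 d mouse 1 and cKO 7 d mouse 2. For Dcn the log2 ratio of mean CPM was -2.93 at 1 d and 2.55 at 14 d. In the quasi-likelihood test of edgeR each had an adjusted p of 0.999, and no gene of the 6 was higher or lower in every cKO mouse than in the WT mouse of its time point. Since no gene passed, genes are named as not passing, the 5 higher and 4 of the 5 lower with the smallest unadjusted p. Kcnj3, a potassium channel, had 2 UMIs in the uninjured WT mouse and 0 in the other WT mice, against 0, 6, 32, 140 and 6 in the cKO mice, 95 of the 140 from 1 cell. The uninjured WT mouse stood at 84.8 CPM. The cKO mice stood at 0 and 89.3 CPM at 1 d, 32.2 at 7 d and 486 and 27.0 at 14 d. In the tested WT mice a level of 0 allows up to 551, 139 and 19.7 CPM at these times. Only at 14 d did the cKO levels of Kcnj3 lie above that limit. Its adjusted p was 0.999 in the quasi-likelihood test of edgeR, higher in 4 of 5 cKO mice, and ran from 0.00071 to 1.00 over the alternatives, under 0.05 in 5 of 19; with the replicate pairing it was 0.0170. Also higher in cKO were Bmp6 (3.45), a Bmp ligand, Galnt13 (3.14), a sugar transferase, Gm10800 (3.95), an unnamed transcript, and Hivep3 (2.67), a zinc-finger protein. Lower were Pglyrp1 (-3.17), which binds bacterial walls, Plb1 (-3.16), a phospholipase, Timm8b (-1.80), a mitochondrial import protein, and Timp4 (-2.73), a protease inhibitor. In the tested mice Bmp6 and Hivep3 were higher and Timm8b lower in every cKO mouse than in the WT mouse of its time point, a pattern 5.71% of all genes show upward and 6.76% downward. The uninjured cKO mice, not tested, had Bmp6 at 333 and 122 CPM against 595 and 254 in the uninjured WT mice. For Hivep3 the levels were 0 and 0 against 0 and 42.4 CPM, and for Timm8b 0 and 0 against 0 and 127, all from 0 to 6 UMIs. In WT 7 d mouse 2, with 3 fibroblasts, Bmp6 (1089 CPM) and Hivep3 (272) were above and Timm8b (0) below the tested cKO 7 d mouse, while cKO 7 d mouse 1, with 7, had 1491, 994 and 249 CPM of the 3. WT 14 d mouse 2, at 237, 94.9 and 83.01 CPM, lay on the WT side of both cKO 14 d mice. This mouse, with 8 fibroblasts, had Galnt13 at 569 CPM against 358 and 554 in the cKO 14 d mice and Gm10800 at 546 against 52.1 and 618. It had 0, 0 and 1 UMIs of Pglyrp1, Plb1 and Timp4, whose 26, 30 and 26 UMIs in the tested WT mice all lie in WT 14 d mouse 1. On leaving out each mouse the log2 difference ran from 2.79 to 8.43 for Galnt13 and from 1.89 to 6.80 for Gm10800. Subcluster 2 holds 533 of 572 UMIs of Galnt13, and subcluster 3 holds 247 UMIs of Gm10800 against 48 in the others. Of the tested WT mice's fibroblasts, subcluster 2 makes up 0, 0, 5.71 and 39.4%. In the cKO mice it makes up 9.09, 10, 37.5, 45.5 and 32%, and its part was not tested.

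Bmp6 stood at 254 CPM in the uninjured WT mouse, 0 (WT), 546 and 89.3 (cKO) at 1 d, 46.2 (WT) and 155 (cKO) at 7 d, and 26.3 (WT), 441 and 392 (cKO) at 14 d. Levels of Hivep3 were 42.4 CPM in the uninjured WT mouse, 0 (WT), 136 and 89.3 (cKO) at 1 d, 46.2 (WT) and 151 (cKO) at 7 d, and 19.7 (WT), 132 and 194 (cKO) at 14 d. For Timm8b they were 127 CPM in the uninjured WT mouse, 367 (WT), 0 and 104 (cKO) at 1 d, 139 (WT) and 67.3 (cKO) at 7 d, and 269 (WT), 52.1 and 45.1 (cKO) at 14 d. Each of these sets rests on few UMIs in the 1 d mice. Over the alternatives the adjusted p ran from 0.0144 to 1.00 for Bmp6 (under 0.05 in 2 of 26), from 0.0390 to 1.00 for Timm8b (1 of 25) and from 0.112 to 1.00 for Hivep3 (0 of 19). Bmp6 passed without TMM (0.0248) and, like Timm8b, without cKO 1 d mouse 2 (0.0144 and 0.0390). The range was 0.0268 to 1.00 for Galnt13 (2 of 24), 0.0163 to 1.00 for Gm10800 (2 of 24) and 0.0413 to 1.00 for Pglyrp1 (1 of 15). It was 0.0257 to 1.00 for Plb1 (2 of 15) and 0.0469 to 1.00 for Timp4 (1 of 15).

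What changes in fibroblasts from 1 d to 7 d after injury was tested between 3 mice at 1 d and 2 at 7 d, with genotype in the model. All 7 fibrillar collagens had log2 differences above 0 under each of 3 scalings, but with edgeR's TMM scaling Col14a1 is the only call among the matrix lists, and some of the other calls rest on few cells. DESeq2 called 3 fibrillar collagens and edgeR without TMM 5. The quasi-likelihood test of edgeR called 7 of 4113 genes (0.17%), 2 higher and 5 lower at 7 d, and 320 genes (7.78%) had an unadjusted p under 0.05. DESeq2 called 14 (12 higher, 2 lower), sharing 1, and edgeR without TMM 52 (31 higher, 21 lower). The median over all genes was 0.23, 0.01 without TMM and -0.07 with DESeq2, and 2463 of 4113 genes were above 0, a shift of the whole scale that each direction is to be read against. Without cKO 7 d mouse 2 the count was 0, without cKO 1 d mouse 1 1, without WT 1 d mouse 1 43, without WT 7 d mouse 1 15 and without WT 14 d mouse 1 11. With the replicate pairing it was 7 (5 the same), with the cell names' conditions 9 (7 the same), and without the mice whose cell names differ 2.

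Fibrillar collagens were above 0 at 7 d for 7 of 7 (median 3.38, 3.26 without TMM, 2.98 with DESeq2), and 7 of them had an unadjusted p under 0.05. Their mice did not overlap within a genotype for 6 of 7, which 15.4% of all genes show upward and 7.97% downward. Without cKO 7 d mouse 2 their median was 2.75, without the mice whose cell names differ 3.13 and without subcluster 5 2.67, so the direction does not rest on that mouse or subcluster. The arms differ in other ways: 33 of 43 fibroblasts of the tested mice lie in subclusters 1 and 3 at 1 d, against 36 of 107 at 7 d, and cKO 1 d mouse 2 has the highest mitochondrial share. The median was 4.06 without subcluster 1, 3.59 without subcluster 3 and 2.99 without that mouse, and the part of subclusters 1 and 3 together was not tested. Other interstitial collagens were above 0 for 7 of 7 (median 2.04, 1.77 without TMM, 1.77 with DESeq2), small leucine-rich proteoglycans for 7 of 7 (median 2.12, 1.74 without TMM, 1.65 with DESeq2) and glycoproteins for 13 of 16 (median 2.33). Processing genes were above 0 for 10 of 10 (median 1.80), and proteases and inhibitors for 8 of 9 (median 1.77). In these lists 5, 5, 9, 6 and 4 genes had an unadjusted p under 0.05, and each list's median lies above the all-genes median under all 3 scalings. Basement membrane genes were above 0 for 10 of 12 (median 0.69), activated and contractile genes for 4 of 6 (median 0.88), the perivascular list for 10 of 13 (median 1.13), and the leptomeningeal list for 8 of 13 (median 0.32, 0.08 without TMM, -0.01 with DESeq2).

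In signalling, Wnt receptors and regulators were above 0 at 7 d for 9 of 10 (median 1.21), Wnt ligands for 2 of 3 (median 0.03, -0.12 without TMM, -0.37 with DESeq2) and Wnt targets for 1 of 3 (median -0.49). Fgf genes were above 0 for 3 of 5 (median 0.35), Pdgf and Igf genes for 9 of 12 (median 0.94), retinoic acid genes for 3 of 8 (median -0.15) and cytokines for 5 of 9 (median 0.06, -0.12 without TMM, -0.30 with DESeq2). Counts above 0 were 12 of 18 (10 without TMM, 10 with DESeq2) for Tgfb and Bmp genes, with 1 member at 0 in an arm, and 6 of 8 (median 0.72, -0.11 with DESeq2) for complement genes. Of these lists, the Wnt ligands, the cytokines and the complement genes thus change sign with the scaling, and with edgeR's TMM scaling the complement and acute phase gene Lcn2, given with the calls, is their only call. DESeq2 called 1 Pdgf or Igf gene, and edgeR without TMM 1 of them and 1 complement gene, with 1 astrocyte marker. Markers of astrocytes were above 0 for 1 of 3 (median -2.33), of endothelial cells for 0 of 4 (median -0.78) and of oligodendrocytes for 1 of 3 (median -0.97).

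The single markers did not pass with edgeR's TMM scaling, although both 7 d mice exceeded all 3 of the 1 d mice for Col3a1, Col1a2 and Col1a1. In the quasi-likelihood test of edgeR the log2 difference was 3.83 (SE 0.98, adjusted p 0.105) for Col3a1, 3.38 (SE 0.94, adjusted p 0.147) for Col1a2 and 3.01 (SE 0.97, adjusted p 0.229) for Col1a1. Each was higher in 2 of 2 mice at 7 d. Over the alternatives their adjusted p ran from 0.000154 to 0.780 for Col3a1 (under 0.05 in 5 of 26), from 0.000271 to 0.780 for Col1a2 (4 of 26) and from 0.0299 to 0.881 for Col1a1 (2 of 26). DESeq2 gave adjusted p of 0.000154 for Col3a1 and 0.000271 for Col1a2. Dcn (1.57), Lum (2.12) and Fn1 (1.12) had adjusted p of 0.855, 0.512 and 0.967 in the quasi-likelihood test of edgeR, and Dcn was highest of all 9 mice in the WT mouse at 1 d.

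By the rule, 3 genes that passed and whose mice do not overlap are named: Col14a1, Fndc1 and Spp1. Col14a1, a collagen that binds fibre surfaces (chromosome 15, 55307750 to 55520803), stood at 466 CPM in the uninjured WT mouse, 0 (WT), 0 and 14.9 (cKO) at 1 d, 509 (WT) and 706 (cKO) at 7 d, and 59.2 (WT), 257 and 248 (cKO) at 14 d. Its log2 difference was 6.08 with an adjusted p of 0.0138 in the quasi-likelihood test of edgeR, higher in 2 of 2 mice at 7 d. The pooled ratio of 713 UMIs to 1 was 56.1-fold (95% counting interval 10.04 to 2219), with 702 of the 713 from cKO 7 d mouse 2. A counting interval takes each UMI as a separate draw and holds no spread between cells or mice. Fndc1, a fibronectin-domain protein (chromosome 17, 7738569 to 7827302), stood at 297 CPM in the uninjured WT mouse, 0 (WT), 0 and 0 (cKO) at 1 d, 416 (WT) and 338 (cKO) at 7 d, and 19.7 (WT), 69.5 and 135 (cKO) at 14 d. It was at least 9.05-fold higher at 7 d (345 UMIs against 0, floor of 3 over the 1 d mice). It had a fitted log2 difference of 9.34 that depends on the prior count and an adjusted p of 0.0171 in the quasi-likelihood test of edgeR, in 2 of 2 mice. Spp1, osteopontin, a secreted adhesion protein of activated phagocytes and scar cells (chromosome 5, 104435118 to 104441050), stood at 0 CPM in the uninjured WT mouse, 3122 (WT), 2592 and 491 (cKO) at 1 d, 46.2 (WT) and 18.1 (cKO) at 7 d, and 19.7 (WT), 108 and 94.7 (cKO) at 14 d. It was lower in 2 of 2 mice at 7 d, 19 UMIs against 69 pooled, a 46.1-fold difference (95% counting interval 27.4 to 81.2). Its log2 difference was -5.64 with an adjusted p of 0.0138 in the quasi-likelihood test of edgeR, and 3.18e-06 with DESeq2. Col14a1 and Fndc1 were thus unseen or nearly so in the 1 d mice, and Spp1 was higher in all 3 than in the other tested mice. In WT 1 d mouse 1 a level of 0 allows up to 551 CPM, above the 509 and 416 in WT 7 d mouse 1. For Col14a1 and Fndc1 the WT mice alone therefore do not show a separation. In mice with fewer than 10 fibroblasts Spp1 stood at 397 (uninjured WT), 2997 and 304 (uninjured cKO), 90.7 (WT 7 d), 497 (cKO 7 d) and 119 CPM (WT 14 d), from 1 to 10 UMIs, so levels as high as at 1 d also occur before injury and at 7 d.

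Of the Col14a1 UMIs, 634 of 879 lie in 19 cells of subcluster 5 in cKO 7 d mouse 2. On leaving out each mouse the log2 difference ran from 5.74 to 9.97 for Col14a1 and from 9.04 to 10.1 for Fndc1. For Spp1 it ran from -6.32 to -4.66. Over the alternatives the adjusted p of Col14a1 ran from 0.000159 to 0.361 (under 0.05 in 18 of 25), that of Fndc1 from 0.000287 to 0.361 (15 of 25) and that of Spp1 from 1.40e-09 to 0.641 (23 of 26). Col14a1 missed the threshold without cKO 1 d mouse 1 (0.0732) or cKO 7 d mouse 2 (0.0700), and with only marker-bearing cells (0.115), thinned cells (0.247) or without subcluster 1 (0.183), 2 (0.173) or 5 (0.361). Fndc1 missed it without cKO 1 d mouse 1 (0.0732), cKO 1 d mouse 2 (0.166) or cKO 7 d mouse 2 (0.181), and without the mice whose cell names differ (0.111). It also missed it with marker-bearing cells (0.201), thinned cells (0.268) or without subcluster 1 (0.173), 2 (0.173), 3 (0.0705) or 5 (0.361). Spp1 missed it without WT 7 d mouse 1 (0.0793), cKO 7 d mouse 2 (0.641) or subcluster 1 (0.333). Spp1 is the call that most alternatives kept.

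The other 4 genes that passed, named after their values were seen, did not separate the time points in both genotypes and were each lower at 7 d. Krt14, a keratin of surface epithelia, had 20 UMIs at 1 d, all in 3 cells of cKO 1 d mouse 1, and 0 at 7 d, so at least 84.7-fold lower pooled. Lgals7, an epithelial lectin, had 25 at 1 d, 22 in 3 cells of the same mouse, and 2 at 7 d (159-fold, counting interval 39.6 to 1384). The counting intervals given here hold no spread between cells or mice. Cpm, a carboxypeptidase, had 14 UMIs at 1 d, 12 in 1 cell of cKO 1 d mouse 2, and 0 at 7 d (at least 59.3-fold lower). Lcn2, an acute phase iron trap, had 21 UMIs at 1 d and 2 at 7 d (133-fold, counting interval 32.6 to 1174), with 12 and 6 of them in 2 cells of cKO 1 d mouse 2. Their log2 differences were -9.82, -8.01, -7.68 and -6.57, each with an adjusted p of 0.0138 in the quasi-likelihood test of edgeR, lower in the 1 cKO mouse at 7 d than in 1 of 2 (Krt14) or 2 of 2 (the others) cKO mice at 1 d. With 0 UMIs at 7 d, the fitted values of Krt14 and Cpm depend on the prior count. On leaving out each of the 9 mice they ran from -11.1 to -3.72 (Krt14), -9.13 to -3.80 (Lgals7), -8.25 to -7.72 (Cpm) and -6.84 to -3.77 (Lcn2). These ranges cover the 7, 7, 4 and 8 omissions that left enough counts for a fit. No UMI of the 4 was found in the WT mice at 1 d and 7 d, so these calls rest on cKO mice. In the WT mouse at 1 d a level of 0 allows up to 551 CPM. Krt14 (2729 CPM) and Lgals7 (3001) in cKO 1 d mouse 1 lie above that. Lcn2 (273 and 283 CPM) and Cpm (136 and 193) in the cKO 1 d mice lie below it, so for them the WT mice cannot show whether they differ. Over the alternatives the adjusted p ran from 2.27e-08 to 1.00 for Krt14 (under 0.05 in 11 of 15), from 8.17e-08 to 1.00 for Lgals7 (11 of 15), from 6.53e-05 to 0.222 for Cpm (12 of 16) and from 0.000238 to 1.00 for Lcn2 (10 of 21). Without cKO 7 d mouse 2 it was 1.00 for Krt14, 1.00 for Lgals7 and 1.00 for Lcn2. Without cKO 1 d mouse 1 it was 0.0732 for Lcn2 and 0.0732 for Cpm, and with the replicate pairing 0.720 for Krt14 and 0.473 for Lgals7. Alternatives that gave a gene no adjusted p are left out of its count, while 26 gave one for Col3a1. The UMIs of these 4 genes lie mostly in 1 to 3 cells each, and whether those cells are fibroblasts was not tested.

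Whether the fibroblasts at 14 d differ from those at 7 d was tested between 3 and 2 mice. In the tested mice under the sample titles, all 7 fibrillar collagens were lower at 14 d than in the 7 d mouse of the same genotype, without any of them passing with edgeR's TMM scaling, where the only call rests on 2 cells. The quasi-likelihood test of edgeR called 1 of 4113 genes (0.0243%), lower at 14 d, and 149 genes (3.62%) had an unadjusted p under 0.05. DESeq2 called 1, a fibrillar collagen, with 93 under 0.05 unadjusted. Without TMM 19 passed (8 higher, 11 lower). The median over all genes was 0.11, 0.01 without TMM and 0.14 with DESeq2, and 2393 of 4113 genes were above 0. Leaving out cKO 1 d mouse 2 gave 31 calls, WT 7 d mouse 1 15, WT 1 d mouse 1 10, cKO 1 d mouse 1 3, and the uninjured WT mouse 0. Leaving out cKO 7 d mouse 2 or cKO 14 d mouse 1 also gave 0. The replicate pairing gave 5 (1 the same), the cell names' conditions 2 (0 the same), and leaving out the mice whose cell names differ 0.

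At 14 d log2 differences below 0 were found for 7 of 7 (median -2.14, -2.24 without TMM, -2.13 with DESeq2) fibrillar collagens, 6 of them with an unadjusted p under 0.05. All 7 were lower without overlap within a genotype, a pattern 17.9% of all genes show. Without cKO 7 d mouse 2 the median was -1.62, with the cell names' conditions -1.69, and without the mice whose cell names differ -2.18. In cKO 7 d mouse 1, not tested, they summed to 5467 CPM, below cKO 14 d mouse 1 (6352), as did cKO 14 d mouse 2 (3823), a 7 d mouse by its cell names. The arms also differ in the collagen-rich subclusters 5 and 6. These hold 20 and 0 of 72 fibroblasts in cKO 7 d mouse 2, and 0 and 10 of 35 in WT 7 d mouse 1. They hold 0 and 0 of 33 in WT 14 d mouse 1. In cKO 14 d mouse 1 they hold 1 and 2 of 22, and in cKO 14 d mouse 2 3 and 0 of 25. The part of subclusters 5 and 6 together was not tested. Counts below 0 were 7 of 7 (median -1.15, -1.18 without TMM, -1.05 with DESeq2) for small leucine-rich proteoglycans, 9 of 10 (median -1.01) for processing genes and 8 of 9 (median -0.75) for proteases and inhibitors. They were 11 of 16 (median -0.78) for glycoproteins, 5 of 7 (median -0.44) for other interstitial collagens, 4 of 6 (median -0.44) for activated and contractile genes and 5 of 12 (median 0.11) for basement membrane genes. The leptomeningeal list went the other way, above 0 for 11 of 13 (median 0.68, 0.52 without TMM, 0.71 with DESeq2). Of its genes 5 were higher without overlap, which 15.1% of all genes show, while the perivascular list was above 0 for 5 of 13 (median -0.22). The medians of the fibrillar collagens, proteoglycans and processing genes thus lie below 0 and that of the leptomeningeal list above 0 under all 3 scalings. With edgeR's TMM scaling no member of these lists passed, but without TMM 2 fibrillar collagens and 1 proteoglycan did and with DESeq2 1 fibrillar collagen, and 0 of 13 leptomeningeal genes had an unadjusted p under 0.05.

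Wnt receptors and regulators were above 0 at 14 d for 2 of 10 (median -0.32), Wnt ligands for 1 of 3 (median -0.14) and Wnt targets for 2 of 3 (median 0.05, -0.03 without TMM). Fgf genes were above 0 for 4 of 5 (median 0.35), Tgfb and Bmp genes for 10 of 18 (median 0.06, -0.08 without TMM), and Pdgf and Igf genes for 4 of 12 (median -0.29). Retinoic acid genes gave 5 of 8 (median 0.13) above 0, cytokines 6 of 9 (median 0.28), and complement genes, with 1 member at 0 in an arm, 2 of 8. The medians of the Wnt targets and of the Tgfb and Bmp genes thus change sign without TMM. No gene of these lists passed with edgeR's TMM scaling or DESeq2, but without TMM 2 Pdgf and Igf genes and 1 marker each of astrocytes, oligodendrocyte precursors and Schwann cells did. Markers of astrocytes were above 0 for 2 of 3 (median 0.83), of endothelial cells for 3 of 4 (median 0.81) and of oligodendrocytes for 2 of 3 (median 0.24).

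For the markers, the quasi-likelihood test of edgeR gave log2 differences of -2.48 (SE 0.91, adjusted p 0.745) for Col3a1, -2.35 (SE 0.92, adjusted p 0.967) for Col1a1 and -2.12 (SE 0.88, adjusted p 1.00) for Col1a2. It gave -1.15 (SE 1.06, adjusted p 1.00) for Dcn and -1.56 (SE 0.73, adjusted p 1.00) for Lum by the same edgeR test. Each of the 5 was lower in 3 of 3 mice at 14 d than in the 7 d mouse of the same genotype. Over the alternatives Lum ran from 3.97e-05 to 1.00, under 0.05 in 1 of 26 (without subcluster 4), and the other 4 markers were under 0.05 in 0 of 26. Fn1 (0.31) was higher in the WT mouse and lower in the cKO mice at 14 d than at 7 d. Sfrp5, a soluble Wnt binder (chromosome 19, 42197971 to 42202252), is the gene that passed. It stood at 0 CPM in the uninjured WT mouse, 0 (WT), 0 and 0 (cKO) at 1 d, 46.2 (WT) and 167 (cKO) at 7 d, and 0 (WT), 0 and 0 (cKO) at 14 d. It was at least 36.2-fold lower at 14 d (0 UMIs against 167, floor of 3 over the 14 d mice). Its fitted log2 difference, which depends on the prior count, was -7.79, with an adjusted p of 0.00813 in the quasi-likelihood test of edgeR, in 3 of 3 mice. Of its UMIs, 165 come from 2 cells of subcluster 2 in cKO 7 d mouse 2, and 1 from WT 7 d mouse 1. Its adjusted p ran from 1.18e-06 to 0.999 over the alternatives (under 0.05 in 12 of 14), 0.0495 with the replicate pairing, 0.300 for the cell names' conditions and 0.999 with DESeq2. Only 14 alternatives could test Sfrp5, against 26 for Col3a1, so that count holds only settings in which it kept enough counts. Without cKO 7 d mouse 2 it had too few counts to be tested. Injured fibroblasts were not compared with uninjured ones by a test, as a single uninjured mouse held 10 fibroblasts.

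**Figure D4:**
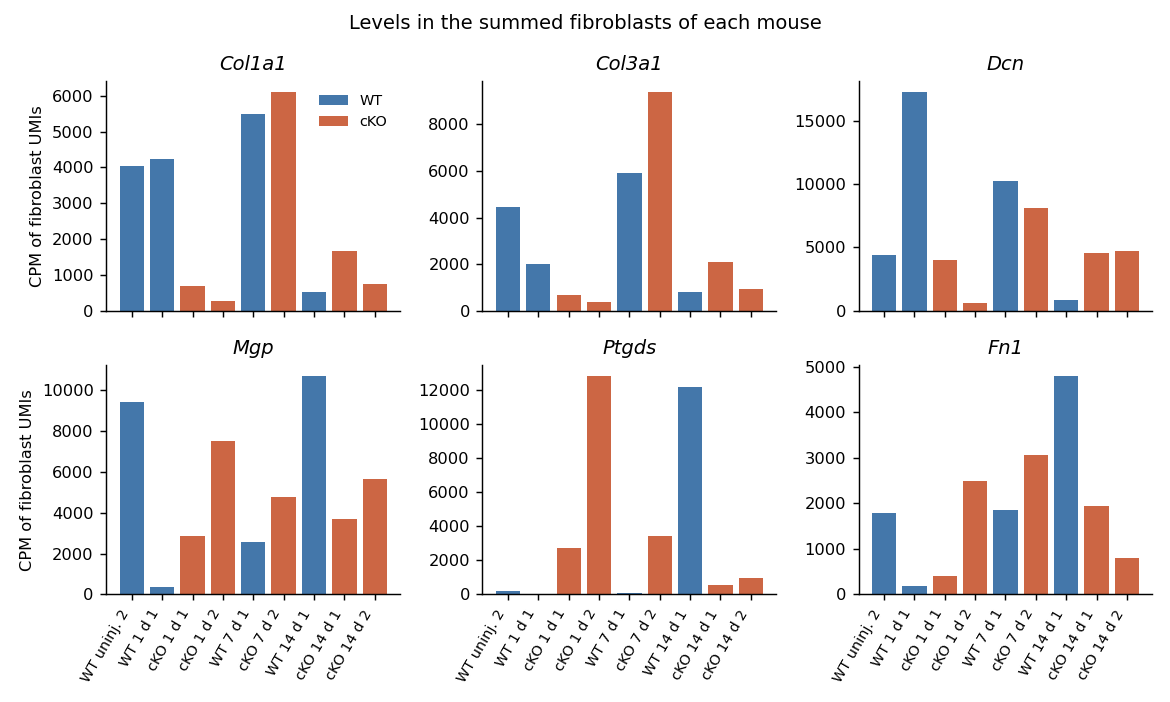
Levels (CPM, bars) of Col1a1, Col3a1, Dcn, Mgp, Ptgds and Fn1 in the summed fibroblasts of each of the 9 mice, coloured by genotype. Col1a1 and Col3a1 are highest in the 7 d mice, and with edgeR's TMM scaling none of the 6 genes passed. At 7 d against 1 d Col3a1 passed in 5 of 26 alternatives and Col1a1 in 2 of 26.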

How the data were processed

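Single-cell RNA was measured in spinal cord of 16 mice. The authors made UMI counts with Cell Ranger on GRCm38 (mm10), kept cells with less than 25% mitochondrial reads and more than 200 genes in Seurat under R 4.1.2, and clustered and named them. The deposited counts are raw UMI counts of 55487 genes in 18203 cells, whose sums equal the deposited totals in 18203 cells, and the deposited mitochondrial percent per cell was used for description alone. 0 unmapped columns were left. No doublet caller was run and no cell was removed, and barcodes shared between libraries were kept. The replicate number equals the deposited batch number in all 16 mice, which is the basis of the pairing by replicate.

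Fibroblast UMIs were summed per mouse. Expression was tested in the 9 mice with at least 10 fibroblasts with edgeR 4.0.16 (TMM, filterByExpr, quasi-likelihood test without the robust option, limma 3.58.1). The model held time point and genotype, and 4113 genes were tested. It had a common dispersion of 0.215, 4 residual and 33.7 prior degrees of freedom, and TMM factors of 0.725 to 1.98. Adjustment was by Benjamini-Hochberg at 0.05, and the procedure was tested on simulated data. DESeq2 1.42.0 under R 4.3.3 was the second tool. Shares (mice with at least 50 cells) were compared by exact permutation tests (Python 3.11.15, numpy 2.4.6, pandas 2.3.3, scipy 1.17.1) with 95% Clopper-Pearson intervals. Subclusters came from scanpy 1.11.5 and igraph 0.11.9 (genes in at least 5 cells, counts scaled to 10000 and logged, 1500 variable genes, 15 components, 15 neighbours, Leiden resolution 0.6, or 1 as the finer one, seed 1). Figures used matplotlib 3.10.9, and positions GENCODE M21.

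By rule these genes were to be named: the 5 markers, Ryk and the Wnt and Fgf genes, Fn1, and the 20 genes with the largest ratio of cluster to other cells. For each comparison these were up to 10 genes each way that passed and whose mice do not overlap within the other factor (where none passed, the 5 each way with the smallest p). Of each gene list the 4 members with the highest mean CPM and any that passed were to be named. Some genes that these rules pick are not reported here. The lists hold matrix, leptomeningeal, perivascular, retinoic acid, Wnt, Fgf, Tgfb and Bmp, Pdgf and Igf, cytokine, complement, cell cycle, immediate early, glycolysis and long non-coding genes and markers of cell types. Members and lists were chosen from textbook roles with earlier results of these data known. Lists are described by counts and medians, without a test.

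Alternatives tried were DESeq2, no TMM, no filter, at least 20 fibroblasts per mouse, the replicate pairing, the conditions of the cell names, cells with at least 500 UMIs, cells with a marker UMI, another denominator of shares (its values are not given here), and leaving out each mouse. Chosen after seeing the data were thinning to 1000 UMIs per cell, leaving out cells above 30000 UMIs, each subcluster, or the mice whose cell names differ.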

Additional observations from a re-analysis of the deposited data

Results flagged for a closer look

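Among 14 groups of samples searched for a value far from the others, 4 held such a value, all from cKO 7 d mouse 2. Of drawn groups of 5 and 6 normal values, 4.997% and 5.21% held one by chance, about 1 in 20. The groups here mix time points and libraries of unlike depth, so that rate need not hold for them. Of the 4 values, 3 are collagen levels of cKO 7 d mouse 2 and do not count as separate. Its fibroblast share of 4.73% stands apart from the other injured cKO mice, which run from 0.392 to 1.94%. Its levels of Col1a1 (6111.3 CPM), Col1a2 (7627.1 CPM) and Col3a1 (9399.2 CPM) stand apart from the other 4 cKO mice, whose highest were 1654, 1959.8 and 2081 CPM. It is the only cKO mouse at 7 d with at least 10 fibroblasts, so for these levels mouse and time point cannot be told apart among tested cKO mice. The share was measured in both cKO 7 d mice, and that of mouse 1, 0.392%, was the lowest of the injured cKO mice.

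For the markers, the log2 ratio of mean CPM in cKO over WT had opposite signs at 1 d and 14 d, and this difference was not tested. At 1 d, 7 d and 14 d it was -2.93, -0.34 and 2.55 for Dcn, -3.15, 0.15 and 1.25 for Col1a1 and -1.82, 0.41 and 0.93 for Col1a2. It was -1.92, 0.67 and 0.95 for Col3a1, so cKO mice were lower at 1 d and higher at 14 d. For Lum it was -0.08 and 1.32 at 7 d and 14 d. At 1 d, with 3 UMIs in the cKO mice and 5 in the WT mouse, its pooled ratio was -4.51 (95% counting interval -7.20 to -2.15), and the ratio of means -2.02 with the cKO mouse at 0 set to its floor of 3 UMIs. From 1 d to 14 d the ratio differed by 5.48 for Dcn, 4.40 for Col1a1, 2.75 for Col1a2 and 2.86 for Col3a1, and by 6.69 for Lum where the 0 is taken as 0, which is no bound. Fn1 went the other way, with 2.99, 0.73 and -1.81, a difference of -4.79. Each time point has a single tested WT mouse, and those at 1 d and 14 d set these ratios as much as the cKO mice do.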

How the results depend on the processing

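Of the single genes under the alternatives, 694 values kept their direction and side of the threshold, 45 kept the direction but lost the threshold, 28 came to pass it and 56 turned around. The share difference between injured and uninjured mice kept its direction under every alternative given here (0.956 to 1.41 points on leaving out each mouse) and never passed. The share difference between genotypes turned to -0.394 with the cell names' conditions and to -0.614 without the mice whose cell names differ, and ran from -0.516 to 0.931 on leaving out each mouse. In all of these the cause was not tested.

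Counts of genes that passed are given for cKO against WT, 14 d against 7 d and 7 d against 1 d. DESeq2 gave 0, 1 and 14, edgeR without TMM 6, 19 and 52, no filter 0, 19 and 21, and at least 20 fibroblasts per mouse 1, 7 and 34. The replicate pairing (block) gave 1, 5 and 7, the cell names' conditions 1, 2 and 9, cells with at least 500 UMIs 1, 12 and 52, and cells with a marker UMI 0, 1 and 1. Alternatives chosen after seeing the data gave 0, 0 and 2 without the mice whose cell names differ, 0, 0 and 1 with cells thinned to 1000 UMIs, and 0, 0 and 10 without cells above 30000 UMIs. Leaving out subcluster 1 gave 0, 4 and 3, subcluster 2 0, 0 and 1 and subcluster 3 0, 0 and 2. Leaving out subcluster 4 gave 3, 29 and 22, subcluster 5 0, 2 and 3 and subcluster 6 0, 1 and 12. Leaving out each mouse in turn gave 0 to 13, 0 to 31 and 0 to 43. Fewer genes could be tested with thinned cells; for the others the cause was not tested.

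For cKO against WT none of the markers passed, and directions turned as follows (log2). Without TMM Fn1 turned to -0.0459 and Col1a2 to -0.0429, and without the filter Lum to 0.11. With at least 20 fibroblasts per mouse Dcn turned to 1.27, Lum to 0.73, Col1a1 to 0.79 and Fn1 to -0.88, and with cells of at least 500 UMIs to 1.39, 0.92, 0.82 and -0.95. Without subcluster 1 the same genes stood at 1.55, 0.60, 1.45 and -0.88. The replicate block (pairing) turned Fn1 to -1.04, Lum to 0.36 and Col1a1 to 0.0625. Col1a2 turned to -0.0375 with the cell names' conditions and to -0.0597 without the mice whose cell names differ, and with thinned cells Col3a1 stood at -0.21 and Col1a2 at -0.27. Without cells above 30000 UMIs Fn1 turned to -0.28. Without subcluster 5 Col3a1 stood at -0.40, Col1a2 at -0.43 and Fn1 at -0.11, and without subcluster 4 Col1a1 at 0.00868.

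Fn1 also turned in the time comparisons. For 14 d against 7 d it stood at -0.0769 with at least 20 fibroblasts per mouse, -0.10 with cells of at least 500 UMIs and -1.04 without subcluster 2, and for 7 d against 1 d at -0.38, -0.41 and, without subcluster 1, -0.55. On leaving out each mouse, cKO against WT ran from -1.38 to 0.83 for Col1a1, -0.46 to 0.76 for Col1a2 and -0.31 to 0.88 for Col3a1. It ran from -1.70 to 1.31 for Dcn, -0.85 to 1.91 for Fn1 and -1.12 to 0.76 for Lum, and Fn1 at 14 d against 7 d from -1.66 to 0.98. The other named genes kept their direction in every alternative that could test them. The cause was not tested.

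Alternatives for injured against uninjured expression were not run, since a single uninjured mouse held at least 10 fibroblasts. DESeq2 gave no adjusted p for Lcn2, Lgals7, Cpm, Krt14, Col14a1 and Fndc1 in 7 d against 1 d, and some genes had too few counts under smaller sets of cells or mice. The counts of alternatives given for such genes hold only those that could test them. Where a mouse left out leaves a lone mouse in an arm, that mouse is taken to vary like the others.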

Other observations

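Cell cycle genes summed to 374 CPM in the fibroblasts and 631 in the other cells, with 1 of 17 higher in the fibroblasts. The leading members Tubb5 (a tubulin) and Stmn1 (a microtubule regulator) ranged over the 9 mice from 125 to 417 CPM (median 189) and from 0 to 149 CPM (median 46.2). Hmgb2 (a chromatin protein) and Pcna (the replication clamp) ranged from 0 to 55.6 CPM (median 35.2) and from 0 to 48.6 CPM (median 14.9). Log2 differences above 0 were seen for 1 of 2 (median 0.01, -0.08 without TMM, -0.06 with DESeq2) in cKO against WT, 0 of 2 (median -0.83) in 7 d against 1 d and 1 of 2 (median 0.32) in 14 d against 7 d, the first turning with the scaling. Immediate early genes summed to 1795 CPM against 1606, with 6 of 14 higher in the fibroblasts. Their transcription factors Jund, Jun, Fos and Junb ranged from 136 to 786 CPM (median 394), from 84.8 to 670.4 CPM (median 341), from 0 to 734 CPM (median 108) and from 42.4 to 551 CPM (median 122). Above 0 were 5 of 8 (median 0.17), 6 of 8 (median 0.55) and 2 of 8 (median -0.31) in the same order. Glycolysis and hypoxia genes summed to 1329 CPM against 1976, with 3 of 14 higher. The leading members, the enzymes Gapdh, Aldoa, Pkm and Ldha, ranged from 212 to 670.4 CPM (median 409), from 136 to 610.0 CPM (median 198), from 0 to 409 CPM (median 162) and from 76.6 to 238 CPM (median 136). Above 0 were 2 of 7 (median -0.11), 1 of 7 (median -0.43) and 4 of 7 (median 0.50).

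Among nuclear long non-coding RNA, summing to 27527 CPM in the fibroblasts and 24194 in the other cells, 2 of 4 were higher in the fibroblasts. Malat1 ranged from 17468 to 50633 CPM (median 26259), Neat1 from 0 to 636 CPM (median 466) and Meg3 from 0 to 1276 CPM (median 302). Above 0 were 3 of 4 (2 without TMM, 2 with DESeq2) in cKO against WT, 3 of 4 (2 without TMM, 2 with DESeq2) in 7 d against 1 d and 3 of 4 in 14 d against 7 d. Xist, made from the inactive X chromosome of females, stood in the fibroblasts at 424 CPM in the uninjured WT mouse, 0 (WT), 682 and 0 (cKO) at 1 d, 46.2 (WT) and 1.01 (cKO) at 7 d, and 0 (WT), 0 and 0 (cKO) at 14 d. Levels above 0 thus occur in mice of both genotypes.

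Markers of other cell types in the fibroblasts were counted above 0 in cKO against WT, 7 d against 1 d and 14 d against 7 d. For pericytes and smooth muscle cells the counts were 2 of 3, 1 of 3 and 1 of 3. They were 1 of 2 each time for microglia. For oligodendrocyte precursors they were 2 of 2, 2 of 2 and 0 of 2, for Schwann cells 0 of 2, 2 of 2 and 0 of 2, for red blood cells 1 of 2, 0 of 2 and 0 of 2 and for ependymal cells 0 of 1, 1 of 1 and 0 of 1. Endothelial markers gave 2 of 4 between genotypes, and neuron markers 1 of 2 and 2 of 2 between time points. No marker of neutrophils or of macrophages passed the filter on low counts.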
